A study of Danio rerio with 6 samples.

Results

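OMP and CMP are cell populations sorted by fluorescence from regrowing zebrafish caudal fins, and their comparison used 4 of the 6 libraries of the study, 2 labelled OMP and 2 labelled CMP. The labels call OMP osteogenic and CMP chondrogenic mesenchymal progenitors, and the sample titles give OMP as EGFP+/sp7+ and CMP as EGFP+/sp7-. Both came from adult fins at 14 days post amputation. All fish carried the same transgenes on an inbred background that goes back to the Tubingen strain. The cassette cryaa:EGFP sits with sox9a:Cre-ERt2, which makes the tamoxifen-dependent recombinase Cre under sox9a control. The reporter Ola.Actb:loxp-TagBFP-loxp-EGFP makes EGFP in place of TagBFP once Cre has acted, and the reporter Ola.Sp7:mCherry makes mCherry under sp7 control. The remaining 2 libraries, labelled osteoblast and EGFP-/sp7+, entered the choice of transcripts, the filter, the scaling and the fit. Their levels are given below only for the reporters and the summed osteoblast markers. Whether replicates 1 and 2 are of different fish is not labelled. All p-values therefore speak of the spread among these libraries alone, which may be technical. OMP and CMP below mean the libraries that carry those labels.

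The rays of a zebrafish fin are dermal bone, which osteoblasts lay down directly in mesenchyme, with joints between ray segments and stiff collagenous fibrils, the actinotrichia, at the tip. After amputation a mound of dividing mesenchyme, the blastema, forms and rebuilds rays and connective tissue. Sp7 encodes a zinc finger transcription factor required for osteoblast maturation, and sox9 genes encode transcription factors known for their role in cartilage.

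With 1 transcript kept for each of 30837 gene symbols, the OMP libraries held 3922181 and 5281887 reads and the CMP libraries 4234255 and 4868446 reads. Values are CPM, each gene's count scaled to a common library size with TMM normalization, and the first value of each pair is replicate 1. The gene behind the sort, sp7, stood at 10.4 and 8.45 CPM in OMP, against 1.99 and 2.17 CPM in CMP (log2 fold change 2.13, SE 0.37, adjusted p = 0.00775, Benjamini-Hochberg adjusted and by edgeR's quasi-likelihood test). The labels divide the groups by sp7, so its difference, although counted among the rises below, is not an independent result. Sox9a stood at 10.9 and 7.17 CPM in OMP, against 54.1 and 38.1 CPM in CMP (log2 fold change -2.36, SE 0.28, adjusted p = 9.19e-04). EGFP stood at 882 and 1115 CPM in OMP, 868 and 803 CPM in CMP and 796 and 950 CPM in the osteoblast libraries, which are labelled EGFP-. Reads of the mCherry reporter numbered 6 and 62 in OMP, against 3 and 47 in CMP and 2455 and 8136 in osteoblasts, which goes against the sp7+ label of OMP. TagBFP-NTR had 56 and 319 reads in OMP, against 287 and 1233 reads in CMP (log2 fold change -2.01, SE 0.24, adjusted p = 8.98e-04, or 0.208 without the block), and CreO-ERt2 had 0 in all libraries. Over all genes tested, 3.12% were called higher in OMP and 2.99% lower at an adjusted p under 0.05, against which the marker lists are set. Of 10 osteoblast markers 6, among them sp7, were higher in OMP and none lower. Their summed level was 5385 and 4235 CPM in OMP, against 963 and 857 CPM in CMP. In the osteoblast libraries it was 185469 and 231867 CPM, and the part of osteoblasts among the OMP cells in these and other rises was not tested. Of 12 fin mesenchyme markers none was higher and 6 were lower, with a summed level of 1825 and 1953 CPM in OMP, against 5051 and 5620.2 CPM in CMP. Of 9 cartilage markers 3 passed the filter on low counts, of which sox9a and hapln1a were lower in OMP, col9a1a had no call and none was higher. Outside this list, col2a1b, col11a1a and ucmaa, which are also known from cartilage and are given below, were higher in OMP. The list summed to 410.1 and 515 CPM in OMP, against 3721 and 4226 CPM in CMP, most of it hapln1a. The cartilage genes acana, col2a1a and matn1 were near 0 in both groups: acana had 4 and 1 reads in OMP against 6 and 0 in CMP, col2a1a 0 and 4 against 0 and 0, and matn1 0 and 0 against 3 and 0. The summed level of 10 epidermal markers was lower in OMP, at 3649 and 3993 CPM, against 6570 and 6945 CPM in CMP, most of it krt4. That of 7 mural cell markers was 338 and 233.7 CPM in OMP and 453 and 587 CPM in CMP. Markers of endothelium summed to between 32.5 and 46.5 CPM over the 4 libraries, most of it fli1a, which had no call. Kdrl had 17 and 10 reads in OMP, against 2 and 1 in CMP, and pecam1 0 and 3 against 2 and 12, both too few to be tested. Markers of pigment cells summed to between 2.34 and 11.5 CPM, those of nerve and glia to between 3.51 and 12.2 CPM and of muscle to between 0.33 and 2.19 CPM. Among the markers of these cell types and of endothelium, cdh5, tie1, xdh, myog, elavl3 and snap25a were at 0. Of 8 nerve and glia genes 3 passed the filter, and these 3 were called. A gene can pass the filter through the group where it is high, so this share of calls adds no support. Elavl4, a neuronal RNA-binding protein gene, was higher, with 33 and 13 reads in OMP, against 6 and 0 reads in CMP (log2 fold change 3.12, SE 0.80, adjusted p = 0.0431, or 0.347 without the block). The myelin genes mbpa, with 0 and 0 reads in OMP, against 3 and 33 reads in CMP (at least 11.3-fold lower in OMP, adjusted p = 0.0319, or 0.232 without the block), and plp1b, with 3 and 3 reads in OMP, against 28 and 31 reads in CMP (adjusted p = 0.0402, or 0.115 without the block), were lower. Leukocyte markers summed to 320 and 202 CPM in OMP, against 81.1 and 53.4 CPM in CMP, most of it mmp9, with mpeg1.1 at 0. Osteoclast markers summed to 304 and 393 CPM in OMP, against 239 and 247 CPM in CMP, most of it ctsk, which had no call, with dcstamp at 0. Erythrocyte markers summed to 1.09 and 11.8 CPM in OMP, against 0.44 and 4.18 CPM in CMP, with gata1a at 0. Heat shock RNA, over 8 genes, made up 19.1% and 7.23% of the OMP reads and 17.2% and 10.97% of the CMP reads, so this sign of stress differed more between replicate numbers than between groups.

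Among 13399 tested genes, OMP had 418 higher and 400 lower than CMP, which is 6.10% of genes called, 3.12% higher and 2.99% lower. A gene was called at an adjusted p under 0.05 in a fit blocked on the replicate number, so that OMP and CMP were compared within replicates 1 and 2. Of the 818 genes, 375 differed at least 4-fold. All 818 differed in the same direction in both replicates, as did 59.61% of all genes, and in 799 of them both OMP libraries lay on one side of both CMP libraries, as in 36.1% of all genes. A fit blocked on the replicate number favours genes that differ in the same direction in both replicates. The shared direction, and remarks below that the groups did not overlap, therefore only describe the values of called genes and add no support to a call. Across genes, the log2 differences of the 2 replicates had a Pearson correlation of 0.438. It was 0.665 among the 5459 genes whose mean CPM over the OMP and CMP libraries had a log2 of 4 or more. Of these 5459 genes 550 were called, a larger share than the 6.10% over all genes. A fit without the block called 261 of the 818, 1.95% of genes tested, namely 132 higher and 129 lower. A fold change given as "with the block only" belongs to a gene that this second fit did not call. Of the 818 calls, 107 were left without OMP replicate 1, 160 without OMP replicate 2, 437 without CMP replicate 1 and 333 without CMP replicate 2. In RNA from a pool of cells, fewer cells that express a gene and less RNA of it per cell cannot be told apart.

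**Figure D1:**
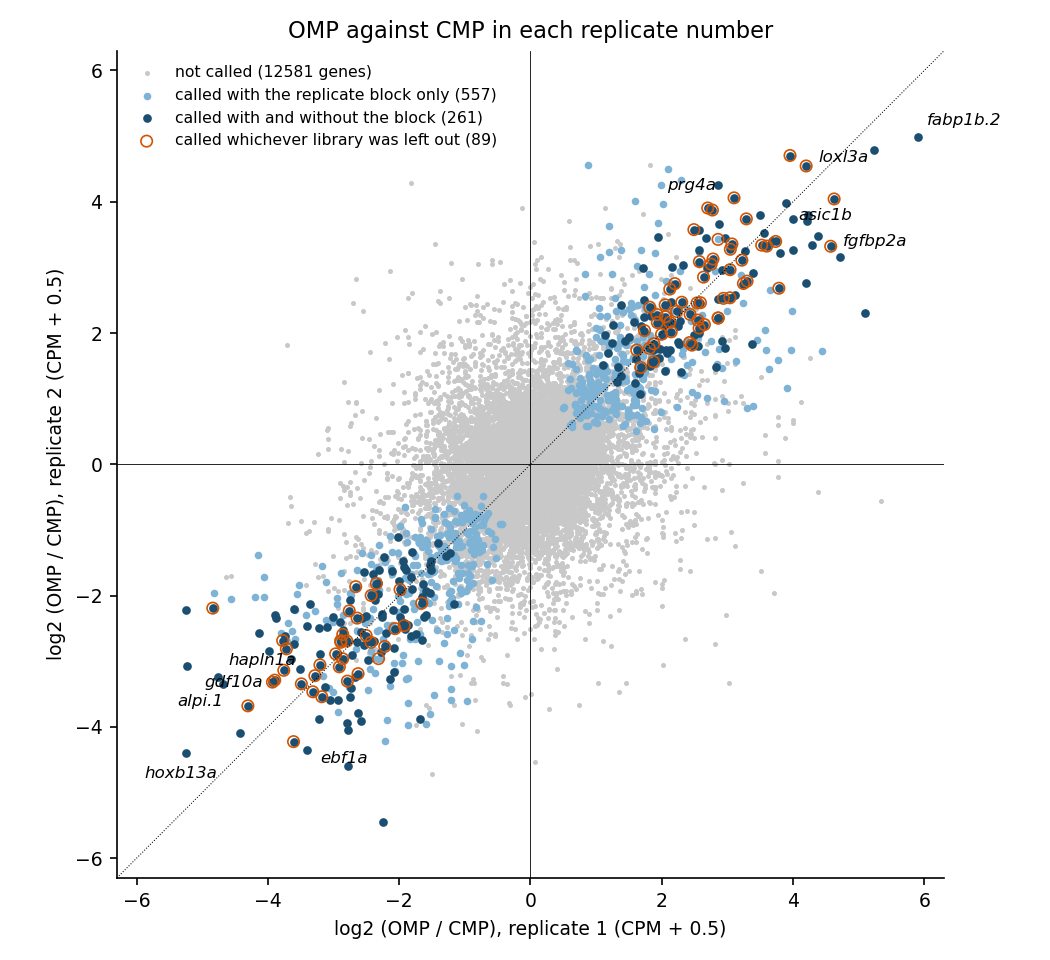
Each point is a gene, placed by its log2 ratio of OMP over CMP (CPM + 0.5) in replicate 1 (x axis) and in replicate 2 (y axis). Grey points are the genes without a call, light blue points the 557 genes called only with the replicate block, dark blue points the 261 called with and without it, and orange rings the 89 called whichever library was left out. All called genes lie in the quadrants where both replicates have the same sign, which the blocked fit favours and which adds no support to the calls.

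The 89 genes that stayed called whichever of the 6 libraries was left out, 54 higher and 35 lower in OMP, spanned secreted matrix, transcription, signalling and metabolism. Of these, 34 belonged to none of the 82 gene families used below, and the ones named in this paragraph were picked from them after their values were seen. Ucmaa, which encodes a secreted protein that is rich in Gla residues and known from growth plate cartilage of mammals, stood at 2523 and 3292 CPM in OMP, against 405 and 455.7 CPM in CMP (log2 fold change 2.74, SE 0.16, adjusted p = 3.87e-05). Clu, the gene of the extracellular chaperone clusterin, stood at 2024 and 1786 CPM in OMP, against 336 and 324 CPM in CMP (log2 fold change 2.52, SE 0.20, adjusted p = 1.57e-04). Aebp1, whose product binds collagen, stood at 925 and 472 CPM in OMP, against 127 and 100.4 CPM in CMP (log2 fold change 2.54, SE 0.20, adjusted p = 1.41e-04). In each of these genes both OMP libraries were far above both CMP libraries. The brain-type creatine kinase gene ckbb (2.397), the lectin gene clec11a (2.17) and the peptidase gene trhde.1 (4.93) also rose.

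Among the falls was mstnb, the gene of myostatin, a secreted inhibitor of muscle growth, at 5.75 and 9.56 CPM in OMP, against 85.03 and 64.2 CPM in CMP (log2 fold change -3.19, SE 0.32, adjusted p = 3.98e-04). Wfikkn2b, whose mammalian counterpart encodes a protein that binds myostatin, fell as well, at 11.5 and 9.24 CPM in OMP, against 82.4 and 95.7 CPM in CMP (log2 fold change -3.12, SE 0.30, adjusted p = 2.69e-04). Cpz, which encodes the secreted carboxypeptidase Z, stood at 41.6 and 40.3 CPM in OMP, against 316 and 346 CPM in CMP (log2 fold change -3.02, SE 0.24, adjusted p = 1.41e-04). Both OMP libraries were far under both CMP libraries in each of the 3. The zinc finger gene bnc2 (-2.59) and the membrane protein gene ifitm1 (-2.26) fell too.

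Genes were ranked by fold change among those whose mean CPM over the OMP and CMP libraries had a log2 of 4 or more. A gene can reach this mean through 1 group alone. The rises were led by loxl3a, a lysyl oxidase gene described with the matrix enzymes, and the acid-sensing ion channel gene asic1b. Asic1b stood at 29.8 and 36.3 CPM in OMP, against 1.55 and 1.84 CPM in CMP (log2 fold change 4.26, SE 0.53, adjusted p = 9.48e-04). Tgm1l3, a transglutaminase gene, stood at 24.1 and 38.9 CPM in OMP, against 2.43 and 3.35 CPM in CMP (log2 fold change 3.44, SE 0.37, adjusted p = 5.26e-04). Fam46ab, a member of a family of noncanonical poly(A) polymerases, stood at 74.7 and 140.4 CPM in OMP, against 8.61 and 14.1 CPM in CMP (log2 fold change 3.23, SE 0.24, adjusted p = 1.17e-04). Genes of this ranking, rises and falls, were chosen among those whose groups do not overlap, so their separation follows from that choice. At the other end, ebf1a led the falls, followed by dlx1a and alpi.1, annotated as an intestinal alkaline phosphatase gene. Alpi.1 stood at 67.9 and 96.4 CPM in OMP, against 1351 and 1242 CPM in CMP (log2 fold change -3.96, SE 0.26, adjusted p = 5.09e-05). The synaptic vesicle protein gene sv2bb stood at 5.75 and 0.478 CPM in OMP, against 29.2 and 42.2 CPM in CMP (log2 fold change -3.82, SE 0.43, adjusted p = 0.00113), and ccdc141, a coiled-coil protein gene, at 6.29 and 2.71 CPM in OMP, against 67.1 and 34.96 CPM in CMP (log2 fold change -3.53, SE 0.41, adjusted p = 7.92e-04). In sv2bb OMP replicate 1 was well above OMP replicate 2, and both lay under CMP. Of these genes tgm1l3, fam46ab, alpi.1 and ccdc141 were called whichever library was left out.

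Some genes had reads almost only in one group. Fabp1b.2, of the liver type of fatty acid binding protein, had 156 and 96 reads in OMP, against 1 and 0 reads in CMP (267-fold higher in OMP, counting interval 47.4 to 10570, adjusted p = 3.98e-04). Zfpm2b, a cofactor of Gata transcription factors, had 67 and 142 reads in OMP, against 0 and 2 reads in CMP (111-fold higher in OMP, counting interval 30.2 to 919, adjusted p = 5.72e-04). Aanat1, an enzyme that acetylates serotonin and other arylalkylamines, had 39 and 106 reads in OMP, against 1 and 1 reads in CMP (76.7-fold higher in OMP, counting interval 20.9 to 639, adjusted p = 2.57e-04). The reverse held for the posterior Hox gene hoxb13a, with 1 and 0 reads in OMP, against 131 and 60 reads in CMP (180-fold lower in OMP, counting interval 32 to 7167, adjusted p = 4.64e-04). It also held for mpp2b, a scaffold protein gene, with 2 and 0 reads in OMP, against 100 and 48 reads in CMP (69.9-fold lower in OMP, counting interval 19 to 583, adjusted p = 7.90e-04). Intervals are exact 95% ones and cover counting error only. The 5 genes were chosen for having reads almost only in one group, so their large folds and the distance between groups follow from that choice. These genes were also called without the block, and aanat1 was called whichever library was left out. In all, 17 called genes had 0 reads over one group, for which folds are bounds against 3 reads over the group, and 27 had 1 to 3. Such genes can pass the filter through the other group alone. Their share among all genes tested was not determined, so these counts only describe the calls.

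Among the genes with the most reads, type I collagen, sparc and periostin RNA rose and keratin, link protein, asporin and actinodin RNA fell. Col1a2, an alpha chain of type I collagen, stood at 50794 and 42665 CPM in OMP, against 15846 and 15344 CPM in CMP (log2 fold change 1.58, SE 0.15, adjusted p = 2.69e-04). Sparc, a collagen-binding matrix protein of bone, stood at 8964 and 10509 CPM in OMP, against 4347 and 4696 CPM in CMP (log2 fold change 1.102, SE 0.14, adjusted p = 0.00156, or 0.0702 without the block). The unnamed locus si:ch211-76l23.4 stood at 3563 and 3224 CPM in OMP, against 364 and 241 CPM in CMP (log2 fold change 3.51, SE 0.18, adjusted p = 3.87e-05). In all 3 the OMP libraries lay above the CMP libraries. Among the falls, hapln1a, which ties proteoglycans to hyaluronan, stood at 395 and 503 CPM in OMP, against 3656 and 4182 CPM in CMP (log2 fold change -3.13, SE 0.17, adjusted p = 3.87e-05). And1, which encodes a structural protein of actinotrichia, stood at 141 and 433 CPM in OMP, against 1983 and 2579 CPM in CMP (log2 fold change -3.24, SE 0.40, adjusted p = 0.00111, or 0.0815 without the block), and gyg1b, a primer enzyme of glycogen synthesis, at 212 and 231 CPM in OMP, against 903 and 1615 CPM in CMP (log2 fold change -2.49, SE 0.29, adjusted p = 8.98e-04). These values did not overlap between groups, and in and1 OMP replicate 1 was well under OMP replicate 2. Junba, of the AP-1 transcription factors, differed less, at 1215 and 744 CPM in OMP, against 1649.8 and 1401 CPM in CMP (log2 fold change -0.68, SE 0.17, adjusted p = 0.0420, or 0.575 without the block). The small heat shock gene hspb1 stood at 9702 and 1528 CPM in OMP, against 4632 and 675 CPM in CMP (log2 fold change 1.12, SE 0.17, adjusted p = 0.00356, or 0.889 without the block). Its groups overlapped, since both libraries of replicate 1 were above both libraries of replicate 2, and OMP was above CMP within each replicate. Col1a2, hapln1a and the unnamed locus were called whichever library was left out.

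Across 82 families taken by gene symbol, 382 of 2803 tested genes were called, and 46 families had calls in both directions. Another 15 families had only rises, 12 only falls and 9 no call. The families below are set against 3.12% of all genes called higher, 2.99% called lower and a median log2 fold change of 0.0088 over all genes tested. Well expressed genes were called more often, and the families were not matched to all genes by expression level. The part of expression level in the family shares was not tested.

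**Figure D2:**
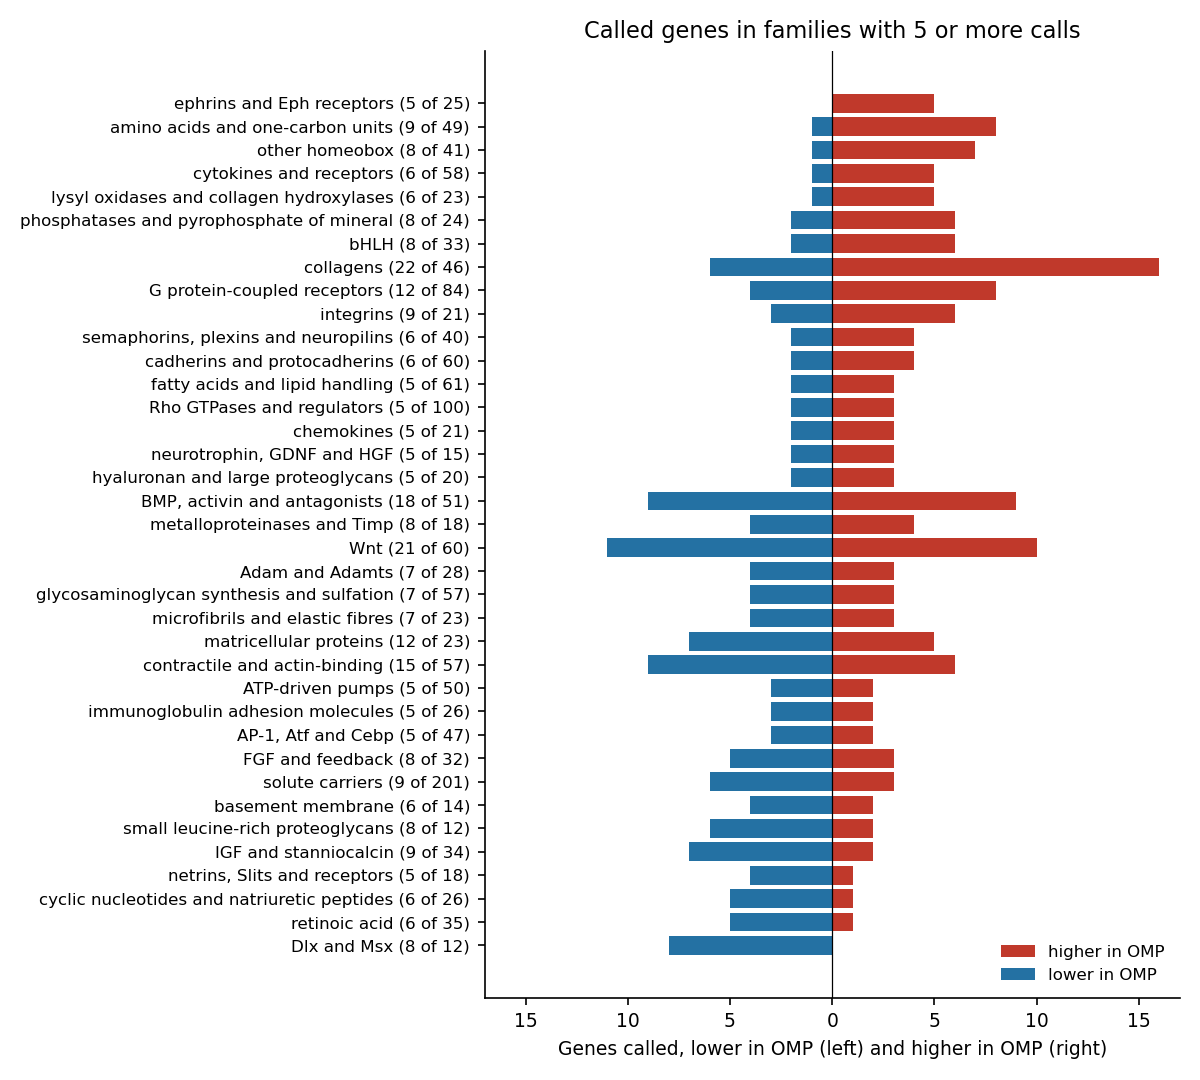
Horizontal bars give the number of called genes higher (right, red) and lower (left, blue) in OMP than in CMP for every family with 5 or more calls, and the labels give the number called of the number tested. Ephrins and Eph receptors had 5 rises and no fall, and Dlx and Msx genes 8 falls and no rise.

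Transcription factor genes numbered 379 among those tested, of which OMP had 23 higher, the sort gene sp7 among them, and 26 lower. The falls included Dlx, Msx, Zic and Ebf genes, and the rises Iroquois, T-box and scleraxis genes and foxd1. Of 12 Dlx and Msx homeobox genes, known for their part in fin and skeletal outgrowth, 8 were lower and none higher, with a median log2 fold change of -2.05. In DESeq2 8 were lower and none higher, and 1 was higher at an unadjusted p under 0.05. Dlx3b stood at 99.04 and 91.3 CPM in OMP, against 620.4 and 465 CPM in CMP (log2 fold change -2.50, SE 0.17, adjusted p = 7.14e-05). Msx2b stood at 3.28 and 7.65 CPM in OMP, against 57.2 and 80.8 CPM in CMP (log2 fold change -3.65, SE 0.31, adjusted p = 1.89e-04), dlx5a at 70.32 and 63.9 CPM in OMP, against 262 and 196 CPM in CMP (log2 fold change -1.76, SE 0.20, adjusted p = 6.31e-04) and dlx1a at 0.821 and 3.19 CPM in OMP, against 33.6 and 36.97 CPM in CMP (log2 fold change -3.97, SE 0.50, adjusted p = 0.00120). In all 4 genes both OMP libraries were under both CMP libraries. Of 11 Snail, Zic and Gli genes, zinc finger factors of embryonic patterning and of cell migration, 4 were lower and none higher, with a median of -1.12 and no gene higher at an unadjusted p under 0.05 or in DESeq2. Zic2a stood at 43.5 and 30.8 CPM in OMP, against 319 and 188 CPM in CMP (log2 fold change -2.74, SE 0.23, adjusted p = 1.81e-04). Zic5 (-3.59, adjusted p = 0.00189) fell, as did snai2, of the Snail factors that repress cadherin genes, at 85.6 and 120.2 CPM in OMP, against 245 and 319.5 CPM in CMP (log2 fold change -1.46, SE 0.17, adjusted p = 8.75e-04, or 0.0543 without the block). Ebf1a, an early B-cell factor that is also known from mesenchymal cells, stood at 6.84 and 2.71 CPM in OMP, against 76.9 and 65.1 CPM in CMP (log2 fold change -4.002, SE 0.44, adjusted p = 5.87e-04). Ebf3a, its relative, fell to 0.547 and 1.43 CPM in OMP, against 13.3 and 12.04 CPM in CMP (log2 fold change -3.47, SE 0.69, adjusted p = 0.0142, or 0.0537 without the block). Nfixb, of the nuclear factor I genes, stood at 217 and 237 CPM in OMP, against 575 and 545 CPM in CMP (log2 fold change -1.30, SE 0.16, adjusted p = 0.00102).

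Of 41 other genes taken by homeobox symbols 7 were higher and 1 lower. The rises include pbxip1a, of a Pbx-interacting protein rather than a homeobox factor, which is also counted among the transcription factor rises. Irx3a, an Iroquois gene, stood at 196 and 103 CPM in OMP, against 23.4 and 12.7 CPM in CMP (log2 fold change 3.04, SE 0.23, adjusted p = 1.16e-04). Evx1, known for its role in zebrafish fin ray joints, stood at 90.3 and 84.2 CPM in OMP, against 14.8 and 19.6 CPM in CMP (log2 fold change 2.35, SE 0.23, adjusted p = 3.46e-04). Irx5a rose as well (2.81, adjusted p = 0.00363). The forkhead gene foxd1 stood at 93.6 and 58.5 CPM in OMP, against 9.05 and 8.03 CPM in CMP (log2 fold change 3.11, SE 0.26, adjusted p = 1.89e-04), and mef2cb, of the myocyte enhancer factors, at 12.04 and 11.8 CPM in OMP, against 0.442 and 0.669 CPM in CMP (log2 fold change 4.32, SE 0.42, adjusted p = 2.74e-04). All these OMP values lay above the CMP values. Tbx18, a T-box gene, stood at 100.4 and 121 CPM in OMP, against 43.9 and 37.1 CPM in CMP (log2 fold change 1.46, SE 0.21, adjusted p = 0.00312). Scxa, a scleraxis gene known from tendon progenitors, stood at 68.9 and 51.3 CPM in OMP, against 26.7 and 13.9 CPM in CMP (log2 fold change 1.61, SE 0.24, adjusted p = 0.00363, or 0.0801 without the block), and scxb rose too (3.66). Runx3, a relative of the osteoblast factor runx2, stood at 96.6 and 50.05 CPM in OMP, against 32.02 and 10.4 CPM in CMP (log2 fold change 1.86, SE 0.28, adjusted p = 0.00338, or 0.141 without the block). Pbx3b had 9 and 23 reads in OMP, against 0 and 0 reads in CMP (at least 11.3-fold higher in OMP, adjusted p = 0.0334, or 0.0940 without the block). The 49 calls among transcription factor genes were 12.9% of those tested, against 6.10% over all genes. Of these 49, 22 were also made without the block, and 11, 12, 30 and 28 were left without OMP replicate 1, OMP replicate 2, CMP replicate 1 and CMP replicate 2, in that order. The calls that stayed whichever library was left out included those of dlx3b, dlx4b, msx2b, zic2a, irx3a, evx1, foxd1 and mef2cb.

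**Figure D3:**
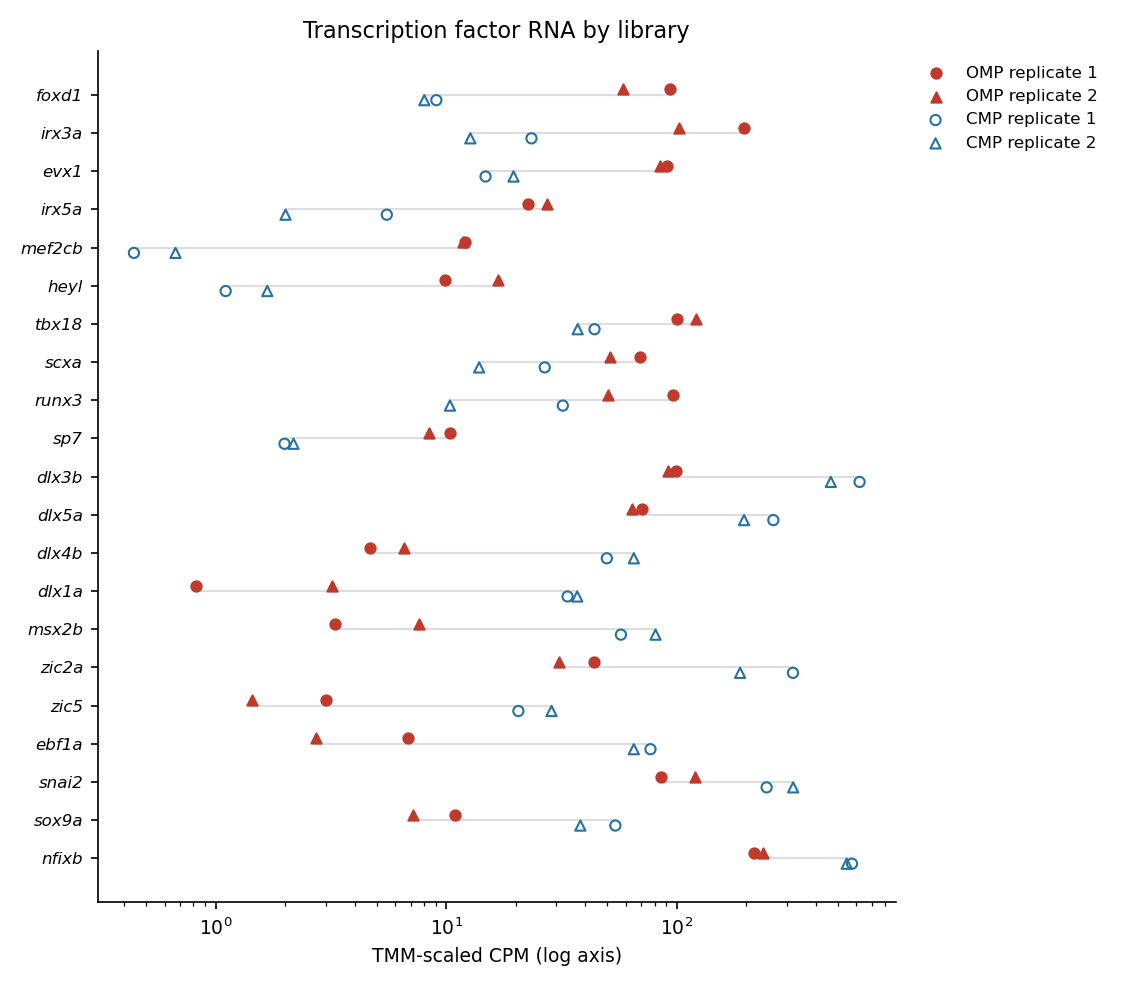
TMM-scaled CPM (x axis, log scale) of 21 transcription factor genes in each library, with OMP as filled red symbols above CMP as open blue symbols, circles for replicate 1 and triangles for replicate 2. From foxd1 to sp7 both OMP libraries lie to the right of both CMP libraries, and from dlx3b to nfixb both lie to the left.

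Structural matrix genes had 60 calls among 138 tested, with 31 higher and 29 lower in OMP. Of 46 collagen genes 16 were higher and 6 lower, with a median log2 fold change of 0.43. Col7a1, the collagen of anchoring fibrils, stood at 484 and 336 CPM in OMP, against 116 and 62.1 CPM in CMP (log2 fold change 2.25, SE 0.18, adjusted p = 1.58e-04). Col14a1a, a collagen that sits on the surface of fibrils, stood at 386 and 198 CPM in OMP, against 66.03 and 35.6 CPM in CMP (log2 fold change 2.51, SE 0.22, adjusted p = 2.05e-04). Col10a1a, a collagen of bone-forming cells in zebrafish, stood at 793 and 594 CPM in OMP, against 126 and 135 CPM in CMP (log2 fold change 2.41, SE 0.20, adjusted p = 1.58e-04). In these genes both OMP libraries were well above both CMP libraries. Col6a1, col6a2, col5a2b, col11a1a and col2a1b were among the other rises, and col4a1, of basement membranes, col18a1b, col25a1, col27a1a, col27a1b and col28a1b were the falls.

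Small leucine-rich proteoglycans, which coat collagen fibrils and set their spacing, fell more often than they rose, with 6 lower and 2 higher of 12 and a median of -1.02. Prelp stood at 54.4 and 77.8 CPM in OMP, against 407 and 512 CPM in CMP (log2 fold change -2.80, SE 0.18, adjusted p = 4.97e-05). Aspn, the gene of asporin, stood at 726 and 743 CPM in OMP, against 3904 and 2967 CPM in CMP (log2 fold change -2.20, SE 0.19, adjusted p = 2.03e-04). Fmodb, the gene of a fibromodulin, stood at 9.85 and 13.1 CPM in OMP, against 125 and 90.003 CPM in CMP (log2 fold change -3.17, SE 0.29, adjusted p = 4.16e-04). Bgna, the biglycan gene, went the other way, at 90.02 and 85.3 CPM in OMP, against 9.05 and 12.2 CPM in CMP (log2 fold change 3.04, SE 0.20, adjusted p = 5.09e-05). The fall of prelp, aspn and fmodb and the rise of bgna held for every OMP library against every CMP library.

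Matricellular proteins act on cells without building fibres. The family taken by their symbols had 5 rises and 7 falls among 23 genes, and also holds the fibronectin gene fn1b, to which this description does not apply. Postnb, a periostin gene, stood at 6295 and 9373 CPM in OMP, against 1371 and 1391 CPM in CMP (log2 fold change 2.50, SE 0.22, adjusted p = 1.99e-04). Thbs3a, a thrombospondin gene, stood at 178 and 135 CPM in OMP, against 707 and 508 CPM in CMP (log2 fold change -1.95, SE 0.16, adjusted p = 1.75e-04), and thbs1b, thbs4a and thbs4b also fell, while thbs2a rose. Fn1b, a fibronectin gene, stood at 206 and 131 CPM in OMP, against 1093 and 421 CPM in CMP (log2 fold change -2.05, SE 0.21, adjusted p = 3.92e-04). In fn1b CMP replicate 1 was well above CMP replicate 2, and OMP lay under both. Among hyaluronan genes and large proteoglycans, the lubricin gene prg4a stood at 1539 and 1154 CPM in OMP, against 179 and 68.8 CPM in CMP (log2 fold change 3.54, SE 0.28, adjusted p = 1.54e-04). Vcanb, a versican gene, stood at 56.6 and 45.4 CPM in OMP, against 238 and 259.97 CPM in CMP (log2 fold change -2.30, SE 0.20, adjusted p = 2.03e-04). Of 14 basement membrane genes 2 were higher and 4 lower, among them lamc3 (1.76, adjusted p = 6.61e-04) and lamc1 (-1.37, adjusted p = 0.00862, or 0.321 without the block). Of 23 microfibril and elastic fibre genes 3 were higher and 4 lower, including the fibrillin gene fbn2 (1.95) and the fibulin gene fbln2 (-1.54). The 60 calls among structural matrix genes were 43.5% of those tested, against 6.10% over all genes. Of these 60, 28 were also made without the block, and 14, 24, 41 and 38 were left without OMP replicate 1, OMP replicate 2, CMP replicate 1 and CMP replicate 2, in that order. The 14 that stayed whichever library was left out were col1a2, col1a1b, col7a1, col10a1a, col14a1a, bgna, postnb, prg4a, prelp, aspn, cilp, hapln1a, thbs3a and vcanb.

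Enzymes that build, crosslink or cut the matrix had 17 rises and 13 falls among 148 tested. Of 23 genes of lysyl oxidases, which crosslink collagen, and of collagen hydroxylases, 5 were higher and 1 lower. Loxl3a stood at 97.95 and 65.8 CPM in OMP, against 4.86 and 2.34 CPM in CMP (log2 fold change 4.53, SE 0.32, adjusted p = 7.81e-05), and loxl4 at 35.6 and 31.2 CPM in OMP, against 6.18 and 6.02 CPM in CMP (log2 fold change 2.44, SE 0.22, adjusted p = 2.32e-04). Plod2, which hydroxylates collagen lysines, was the fall, at 30.1 and 20.7 CPM in OMP, against 107 and 69.3 CPM in CMP (log2 fold change -1.79, SE 0.22, adjusted p = 0.00113). Sulf1, which removes sulfate from heparan sulfate outside the cell, stood at 665 and 375 CPM in OMP, against 57.4 and 36.6 CPM in CMP (log2 fold change 3.45, SE 0.18, adjusted p = 3.87e-05). Every OMP library exceeded every CMP library in loxl3a, loxl4 and sulf1, and the reverse held for plod2. Of 57 genes of glycosaminoglycan synthesis and sulfation 3 were higher, namely sulf1, glceb and chpf2, and 4 lower. Chpf2 encodes a chondroitin polymerizing factor, so genes of chondroitin sulfate chains were called in both directions. The falls were ext1c, which is not of chondroitin sulfate chains, and 3 enzymes that start and extend such chains, csgalnact1a at 6.29 and 5.74 CPM in OMP, against 32.5 and 44.8 CPM in CMP (log2 fold change -2.71, SE 0.32, adjusted p = 5.72e-04), chsy1 (log2 fold change -1.59, SE 0.29, adjusted p = 0.0103, or 0.311 without the block) and xylt1 (log2 fold change -2.35, SE 0.45, adjusted p = 0.0132, or 0.0783 without the block).

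Metalloproteinases and their Timp inhibitors went both ways, with 4 higher and 4 lower of 18. Mmp9, a gelatinase that leukocytes also make, stood at 309 and 194 CPM in OMP, against 69.6 and 47.5 CPM in CMP (log2 fold change 2.09, SE 0.17, adjusted p = 1.60e-04). The 8 other leukocyte markers had at most 19 reads in any of the 4 libraries, and among them mpx had 12 and 12 reads in OMP, against 0 and 4 reads in CMP, with no call. The part of leukocytes in the rise of mmp9 was not tested. Mmp23bb rose (3.100) and mmp13a, mmp15b and mmp11b fell. The tandem duplicates timp4.1 and timp4.3 parted, with timp4.1 at 28.7 and 13.9 CPM in OMP, against 3.53 and 0.836 CPM in CMP (log2 fold change 3.41, SE 0.48, adjusted p = 0.00241, or 0.0949 without the block) and timp4.3 at 66.8 and 36.8 CPM in OMP, against 224 and 223 CPM in CMP (log2 fold change -2.19, SE 0.24, adjusted p = 6.61e-04). Both parted without overlap. Their sequences were not compared, and whether the counting divided reads between the copies was not tested. Serpine2, an inhibitor of serine proteases, stood at 2929 and 2129.8 CPM in OMP, against 769.9 and 438 CPM in CMP (log2 fold change 2.098, SE 0.17, adjusted p = 1.54e-04). The 30 calls among matrix enzyme genes were 20.3% of those tested, against 6.10% over all genes. Of these 30, 12 were also made without the block, and 8, 8, 19 and 15 were left without OMP replicate 1, OMP replicate 2, CMP replicate 1 and CMP replicate 2, in that order. The 6 that stayed whichever library was left out were loxl3a, loxl4, sulf1, mmp9, serpine2 and timp4.1.

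Wnt signalling genes were called in both directions, 10 higher and 11 lower of 60, and the calls fell on ligands, secreted inhibitors and receptors alike. Wnt ligands act through Frizzled and Lrp receptors and are held back by secreted proteins that bind the ligand or the receptor. Of the ligands, wnt10a and wnt16 rose and wnt5a fell. Wnt9b had 46 and 25 reads in OMP, against 0 and 0 reads in CMP (at least 25-fold higher in OMP, adjusted p = 0.00820). Of the secreted inhibitors, wif1 stood at 1248 and 740.5 CPM in OMP, against 286 and 165 CPM in CMP (log2 fold change 2.14, SE 0.16, adjusted p = 1.00e-04), and dkk2 at 22.2 and 13.1 CPM in OMP, against 0.663 and 0.836 CPM in CMP (log2 fold change 4.42, SE 0.54, adjusted p = 6.09e-04). Frzb, also a secreted inhibitor, moved the other way, at 53.9 and 111 CPM in OMP, against 503 and 832 CPM in CMP (log2 fold change -3.02, SE 0.38, adjusted p = 0.00132). These 3 genes separated the groups without overlap. The inhibitor genes sfrp1b, sfrp2, notum1a, notum1b and apcdd1l rose and dkk3b fell. Rspo1, of the R-spondins that strengthen Wnt signals, stood at 1.64 and 3.67 CPM in OMP, against 19.4 and 23.1 CPM in CMP (log2 fold change -2.93, SE 0.41, adjusted p = 0.00139), and its receptor gene lgr4 fell as well. All receptor genes called were lower, namely fzd4, fzd7a, fzd9a, fzd9b and lrp5. Fzd9a stood at 4.104 and 0.797 CPM in OMP, against 31.1 and 30.8 CPM in CMP (log2 fold change -3.88, SE 0.46, adjusted p = 0.00141) and fzd9b at 3.83 and 3.51 CPM in OMP, against 30.3 and 24.8 CPM in CMP (log2 fold change -2.87, SE 0.43, adjusted p = 0.00330). Tcf7l1a, a transcription factor of the pathway, fell. The 21 calls among Wnt genes were 35% of those tested, against 6.10% over all genes. Of these 21, 11 were also made without the block, and 1, 4, 12 and 14 were left without OMP replicate 1, OMP replicate 2, CMP replicate 1 and CMP replicate 2, in that order. Of these, wif1 alone stayed called whichever library was left out.

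BMP and TGF-beta genes had 10 rises and 12 falls among 68 tested, with ligands and antagonists on both sides. Bmp3, an atypical BMP ligand found in bone, stood at 28.7 and 14.5 CPM in OMP, against 2.87 and 2.01 CPM in CMP (log2 fold change 3.08, SE 0.38, adjusted p = 0.00115), and bmp2b and bmp8a rose too. Gdf10a, a related ligand, stood at 24.9 and 55.8 CPM in OMP, against 343 and 495 CPM in CMP (log2 fold change -3.43, SE 0.21, adjusted p = 4.60e-05), and gdf10b at 4.38 and 6.06 CPM in OMP, against 34.7 and 37.3 CPM in CMP (log2 fold change -2.75, SE 0.33, adjusted p = 0.00106). The ligand genes gdf6a, bmp7b and inhbab also fell. For bmp3, gdf10a and gdf10b the groups did not overlap. BMP antagonists were found on both sides, since grem1b, grem2b, nog3, nbl1 and fstb rose and nog1 and sostdc1a fell. Nog1, a noggin gene, stood at 7.39 and 6.38 CPM in OMP, against 51.7 and 51.02 CPM in CMP (log2 fold change -2.91, SE 0.30, adjusted p = 4.16e-04). Of 17 TGF-beta genes, tgfb2l rose, at 11.2 and 10.04 CPM in OMP, against 1.104 and 0.335 CPM in CMP (log2 fold change 3.92, SE 0.62, adjusted p = 0.00434), and tgfb3 fell, at 59.1 and 53.6 CPM in OMP, against 188 and 233.7 CPM in CMP (log2 fold change -1.90, SE 0.21, adjusted p = 5.72e-04). The other falls were those of the receptor gene tgfbr2b (-0.97, adjusted p = 0.0231, or 0.235 without the block) and of tgfbi, a matrix protein gene, at 52.8 and 157 CPM in OMP, against 380.3 and 959 CPM in CMP (log2 fold change -2.69, SE 0.41, adjusted p = 0.00413, or 0.0605 without the block). None of 17 Smad and Stat genes was called by edgeR's quasi-likelihood test or DESeq2, and 1 had an unadjusted p under 0.05. The 22 calls among BMP and TGF-beta genes were 32.4% of those tested, against 6.10% over all genes. Of these 22, 9 were also made without the block, and 3, 4, 16 and 12 were left without OMP replicate 1, OMP replicate 2, CMP replicate 1 and CMP replicate 2, in that order. Those of gdf10a and tgfb3 stayed whichever library was left out.

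Genes of the insulin-like growth factor system fell more often than they rose, and over all growth factors 9 genes were higher and 16 lower of 106 tested. Of 34 IGF and stanniocalcin genes 2 were higher and 7 lower, with a median of -0.35. Igf2a, a growth-promoting ligand, stood at 42.4 and 43.2 CPM in OMP, against 166 and 230.2 CPM in CMP (log2 fold change -2.20, SE 0.23, adjusted p = 4.97e-04), and igf2b at 69.8 and 41.6 CPM in OMP, against 216 and 211 CPM in CMP (log2 fold change -2.01, SE 0.25, adjusted p = 0.00111). Htra3a, a secreted serine protease gene, stood at 1.92 and 1.75 CPM in OMP, against 14.4 and 30.8 CPM in CMP (log2 fold change -3.66, SE 0.48, adjusted p = 0.00151). In these 3 genes both OMP libraries were under both CMP libraries. All 3 pappalysin genes called, whose proteases cut IGF-binding proteins and release IGF, were lower, namely pappa2 (log2 fold change -1.98, SE 0.31, adjusted p = 0.00417, or 0.117 without the block), pappaa (-1.88 with the block only) and pappab. Pappab had 2 and 0 reads in OMP, against 37 and 33 reads in CMP (33.1-fold lower in OMP, counting interval 8.82 to 278, adjusted p = 0.0133, or 0.0463 without the block). The binding protein gene igfbp3 and the insulin receptor substrate gene irs2b rose. Another binding protein gene, igfbp6a, fell, with 1 and 1 reads in OMP, against 62 and 13 reads in CMP (35.4-fold lower in OMP with the block only, counting interval 9.48 to 298).

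Of 32 FGF genes 3 were higher and 5 lower. Fgfbp2a, of the FGF-binding proteins, stood at 674 and 720.2 CPM in OMP, against 27.8 and 71.6 CPM in CMP (log2 fold change 3.88, SE 0.29, adjusted p = 1.08e-04). The receptor gene fgfr2 stood at 58.004 and 42.1 CPM in OMP, against 169 and 165 CPM in CMP (log2 fold change -1.77, SE 0.20, adjusted p = 7.90e-04) and the decoy-like receptor gene fgfrl1a at 48.4 and 26.9 CPM in OMP, against 227 and 187 CPM in CMP (log2 fold change -2.51, SE 0.21, adjusted p = 1.89e-04), while fgfr4 rose. Fgf24, a ligand gene, was among the falls. Mdka, the gene of the heparin-binding growth factor midkine, stood at 319 and 318 CPM in OMP, against 967 and 1560.5 CPM in CMP (log2 fold change -1.97, SE 0.22, adjusted p = 6.28e-04). Pdgfab, a ligand gene of the platelet-derived growth factors, stood at 11.5 and 3.35 CPM in OMP, against 59.2 and 29.4 CPM in CMP (log2 fold change -2.69, SE 0.32, adjusted p = 9.02e-04, or 0.0723 without the block). Hgfa, the gene of a hepatocyte growth factor, rose, at 7.66 and 21.04 CPM in OMP, against 2.21 and 0.836 CPM in CMP (log2 fold change 3.31, SE 0.67, adjusted p = 0.0222, or 0.0736 without the block), and ntrk2a, a neurotrophin receptor gene, fell, at 1.64 and 1.12 CPM in OMP, against 13.7 and 16.7 CPM in CMP (log2 fold change -3.52, SE 0.62, adjusted p = 0.00581). None of these genes had overlapping groups. None of 10 EGF and neuregulin genes was called by edgeR's quasi-likelihood test or DESeq2, and 1 had an unadjusted p under 0.05. The 25 calls among growth factor genes were 23.6% of those tested, against 6.10% over all genes. Of these 25, 10 were also made without the block, and 3, 3, 14 and 11 were left without OMP replicate 1, OMP replicate 2, CMP replicate 1 and CMP replicate 2, in that order. Fgfbp2a, fgfrl1a and pdgfab stayed called whichever library was left out.

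Retinoic acid genes of binding, synthesis and breakdown were called, and Hedgehog and Notch genes had 1 call between them. Of 35 retinoic acid genes 1 was higher and 5 lower. Crabp1b, a cytosolic retinoic acid binding protein gene, stood at 319 and 477 CPM in OMP, against 104 and 142 CPM in CMP (log2 fold change 1.69, SE 0.17, adjusted p = 4.51e-04). Crabp2a, its relative, was among the falls. Cyp26b1, which degrades retinoic acid, stood at 169 and 162 CPM in OMP, against 721 and 758 CPM in CMP (log2 fold change -2.16, SE 0.26, adjusted p = 9.28e-04). Aldh1a2, which makes it, stood at 6.84 and 9.72 CPM in OMP, against 32.02 and 21.2 CPM in CMP (log2 fold change -1.59, SE 0.37, adjusted p = 0.0286, or 0.115 without the block). Rdh8a, a retinol dehydrogenase gene, stood at 0.547 and 2.07 CPM in OMP, against 16.1 and 17.9 CPM in CMP (log2 fold change -3.54, SE 0.51, adjusted p = 0.00234). Each of these genes separated the OMP from the CMP libraries. Of 22 Notch genes only heyl, a target and transcriptional repressor of the pathway, was called, at 9.85 and 16.7 CPM in OMP, against 1.104 and 1.67 CPM in CMP (log2 fold change 3.24, SE 0.50, adjusted p = 0.00427). None of 17 Hedgehog genes was called by edgeR's quasi-likelihood test or by DESeq2, and at an unadjusted p under 0.05 there were 1 higher and 3 lower. The 7 calls of these families were 9.46% of the genes tested, against 6.10% over all genes. Of these, 4 were also made without the block, and 1, 1, 5 and 3 were left without OMP replicates 1 and 2 and CMP replicates 1 and 2. The call of crabp1b stayed whichever library was left out.

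Other receptors and mediators had 18 rises and 17 falls among 306 tested genes. Of 84 G protein-coupled receptor genes 8 were higher and 4 lower. Calcrlb, whose product is a receptor of calcitonin-related peptides, stood at 61.6 and 54.99 CPM in OMP, against 5.96 and 5.35 CPM in CMP (log2 fold change 3.36, SE 0.31, adjusted p = 2.69e-04). S1pr5a, a receptor gene for sphingosine-1-phosphate, stood at 221 and 127 CPM in OMP, against 68.5 and 38.98 CPM in CMP (log2 fold change 1.70, SE 0.19, adjusted p = 7.73e-04, or 0.0650 without the block). Htr4, a serotonin receptor gene, stood at 0.821 and 0.638 CPM in OMP, against 8.61 and 18.4 CPM in CMP (log2 fold change -4.31, SE 0.62, adjusted p = 0.00188), and adgrg6, an adhesion receptor gene, at 6.29 and 6.53 CPM in OMP, against 39.1 and 47.01 CPM in CMP (log2 fold change -2.74, SE 0.35, adjusted p = 0.00132). In all 4 the groups did not overlap. Natriuretic peptides signal through cyclic GMP, and of 26 genes of cyclic nucleotides and these peptides 1 was higher and 5 lower. Npr2, whose mammalian counterpart encodes the C-type natriuretic peptide receptor that promotes bone growth, stood at 4.92 and 6.85 CPM in OMP, against 61.2 and 63.2 CPM in CMP (log2 fold change -3.34, SE 0.37, adjusted p = 6.90e-04). Npr3, of the clearance receptor, also fell (log2 fold change -2.86, SE 0.52, adjusted p = 0.00913, or 0.0792 without the block), while npr1a, of the A-type receptor, rose, at 68.7 and 40.004 CPM in OMP, against 21.4 and 13.4 CPM in CMP (log2 fold change 1.63, SE 0.26, adjusted p = 0.00445, or 0.0912 without the block). Gucy2g, a guanylate cyclase gene, had 0 and 0 reads in OMP, against 15 and 38 reads in CMP (at least 16.7-fold lower in OMP, adjusted p = 0.0238, or 0.0770 without the block).

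Of 17 genes of prostaglandins and eicosanoids 3 were lower and none higher, 1 was higher at an unadjusted p under 0.05, and DESeq2 called 2 lower and none higher. Ptgs2a, a cyclooxygenase that starts prostaglandin synthesis, stood at 61.3 and 30.6 CPM in OMP, against 415 and 364 CPM in CMP (log2 fold change -3.21, SE 0.36, adjusted p = 7.20e-04). Hpgd, which inactivates prostaglandins, stood at 2.19 and 6.69 CPM in OMP, against 34.9 and 50.02 CPM in CMP (log2 fold change -3.22, SE 0.35, adjusted p = 4.67e-04), and ptgdsb.1, of prostaglandin D synthesis, at 257 and 249.6 CPM in OMP, against 894 and 1079 CPM in CMP (log2 fold change -1.98, SE 0.39, adjusted p = 0.0157, or 0.0815 without the block). All 3 were lower in both OMP libraries than in either CMP library. Of 21 chemokine genes 3 were higher and 2 lower. The ligand gene ccl25b stood at 798 and 857 CPM in OMP, against 57.4 and 133 CPM in CMP (log2 fold change 3.18, SE 0.30, adjusted p = 2.74e-04), and cxcl14 at 12.3 and 26.6 CPM in OMP, against 86.4 and 127 CPM in CMP (log2 fold change -2.47, SE 0.25, adjusted p = 3.72e-04). Of 58 cytokine genes 5 were higher and 1 lower, among them csf1b, of the growth factor of macrophages and osteoclasts, at 218 and 248 CPM in OMP, against 129.6 and 99.2 CPM in CMP (log2 fold change 1.05, SE 0.21, adjusted p = 0.0156, or 0.158 without the block). Its duplicate csf1a rose as well. Lepb, a leptin gene known from regenerating zebrafish tissue, stood at 41.3 and 17.9 CPM in OMP, against 70.01 and 95.7 CPM in CMP (log2 fold change -1.60, SE 0.37, adjusted p = 0.0270, or 0.198 without the block). None of 52 genes of MAP kinases and dual-specificity phosphatases was called by edgeR's quasi-likelihood test or DESeq2, and 4 had an unadjusted p under 0.05. The 35 calls among receptor and mediator genes were 11.4% of those tested, against 6.10% over all genes. Of these 35, 11 were also made without the block, and 3, 7, 20 and 10 were left without OMP replicate 1, OMP replicate 2, CMP replicate 1 and CMP replicate 2, in that order. Ccl25b, cxcl14 and hpgd stayed called whichever library was left out.

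**Figure D4:**
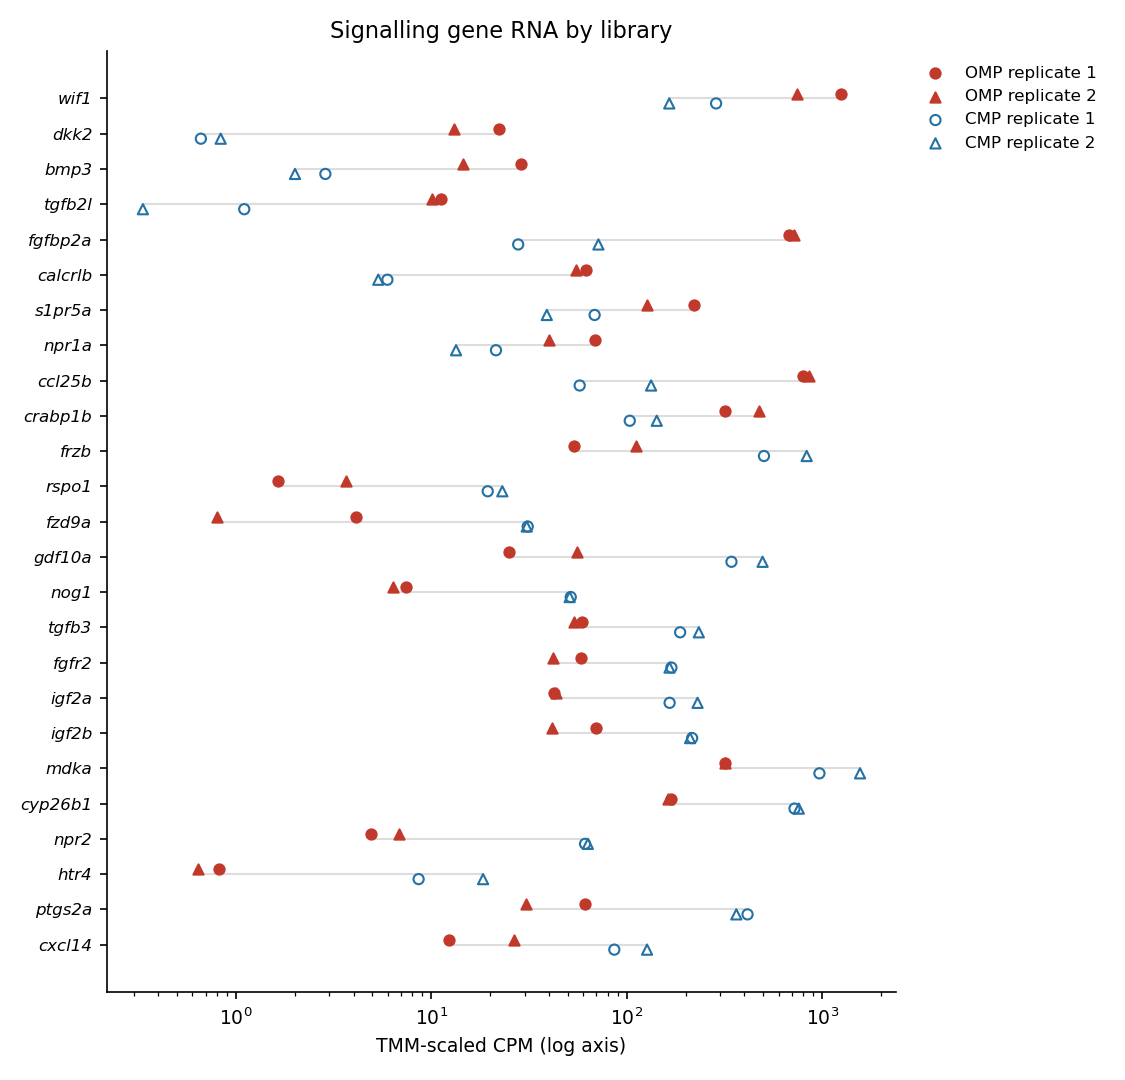
TMM-scaled CPM (x axis, log scale) of 25 signalling genes in each library, with OMP as filled red symbols above CMP as open blue symbols, circles for replicate 1 and triangles for replicate 2. From wif1 to crabp1b both OMP libraries lie to the right of both CMP libraries, and from frzb to cxcl14 both lie to the left.

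Adhesion genes had 19 rises and 11 falls among 192 tested, and cadherins and integrins had calls in both directions. Cdh11, known as the cadherin of osteoblasts, stood at 639 and 568 CPM in OMP, against 92.5 and 64.6 CPM in CMP (log2 fold change 2.96, SE 0.17, adjusted p = 3.87e-05), and cdh7 at 123.4 and 105 CPM in OMP, against 20.3 and 11.9 CPM in CMP (log2 fold change 2.85, SE 0.25, adjusted p = 2.04e-04). Cdh2, which encodes N-cadherin, stood at 54.7 and 36.98 CPM in OMP, against 163 and 118 CPM in CMP (log2 fold change -1.63, SE 0.23, adjusted p = 0.00259, or 0.105 without the block). Pcdh7b, a protocadherin gene, stood at 1.37 and 0.797 CPM in OMP, against 22.3 and 23.8 CPM in CMP (log2 fold change -4.49, SE 0.48, adjusted p = 4.92e-04). Both OMP libraries were above both CMP libraries in cdh11 and cdh7 and under them in cdh2 and pcdh7b. Integrins are receptors for matrix, and of 21 genes taken by integrin symbols 6 were higher and 3 lower. The rises include itgbl1, of an integrin beta-like protein rather than an integrin subunit. The collagen-binding subunit genes itga10, at 60.5 and 44.3 CPM in OMP, against 16.6 and 14.7 CPM in CMP (log2 fold change 1.73, SE 0.22, adjusted p = 0.00124), and itga11a (log2 fold change 1.33, SE 0.24, adjusted p = 0.0112, or 0.0936 without the block) rose. The falls were itga5, itgav and itgb3b, subunit genes of receptors for fibronectin and vitronectin, with itgb3b at 4.65 and 10.8 CPM in OMP, against 34.01 and 43.7 CPM in CMP (log2 fold change -2.34, SE 0.34, adjusted p = 0.00320, or 0.0650 without the block). Itga8, also a subunit gene of such receptors, went the other way and was higher, as were itgbl1, itga6b and itgb4. Cadm2a, an immunoglobulin adhesion gene, stood at 144 and 124 CPM in OMP, against 40.4 and 23.3 CPM in CMP (log2 fold change 2.12, SE 0.21, adjusted p = 3.62e-04). Of 7 gap junction genes 2 were lower and none higher, in DESeq2 as well, and 1 was higher at an unadjusted p under 0.05. Cx43, the connexin gene of the zebrafish short fin mutant, stood at 106 and 78.3 CPM in OMP, against 403 and 432 CPM in CMP (log2 fold change -2.21, SE 0.21, adjusted p = 2.69e-04). Gpc5a and gpc5c, of the heparan sulfate proteoglycans called glypicans, rose (1.87 and 2.23). The 30 calls among adhesion genes were 15.6% of those tested, against 6.10% over all genes. Of these 30, 12 were also made without the block, and 6, 9, 20 and 17 were left without OMP replicate 1, OMP replicate 2, CMP replicate 1 and CMP replicate 2, in that order. Cdh11, cdh7, pcdh7b, cadm2a and cx43 stayed called whichever library was left out.

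Genes first known for guiding axons included 10 rises and 6 falls among 83 tested. Of 25 ephrin and Eph receptor genes, whose products signal between touching cells, 5 were higher and none lower. DESeq2 called 4 higher and none lower, and 3 were lower at an unadjusted p under 0.05. Epha4b stood at 37.5 and 35.5 CPM in OMP, against 6.405 and 9.703 CPM in CMP (log2 fold change 2.15, SE 0.30, adjusted p = 0.00234), and epha7 at 13.95 and 7.01 CPM in OMP, against 0.883 and 0.502 CPM in CMP (log2 fold change 3.85, SE 0.60, adjusted p = 0.00408). Epha3 (1.79 with the block only), efnb2b (1.87 with the block only) and ephb2b (0.95 with the block only) rose as well, with adjusted p from 0.0656 to 0.488 without the block. Of 40 semaphorin, plexin and neuropilin genes 4 were higher and 2 lower. Sema3d, a secreted semaphorin gene, stood at 79.6 and 71.4 CPM in OMP, against 13.7 and 17.9 CPM in CMP (log2 fold change 2.27, SE 0.27, adjusted p = 8.98e-04), and nrp1a, of a semaphorin receptor, at 93.03 and 64.4 CPM in OMP, against 20.98 and 9.703 CPM in CMP (log2 fold change 2.42, SE 0.24, adjusted p = 3.20e-04). The receptor gene nrp2a was one of the falls. In the Eph receptors and semaphorin genes given with library values every OMP value exceeded every CMP value. Of 18 netrin, Slit and receptor genes 1 was higher and 4 lower. Ntng2b, a membrane-bound netrin-G gene, stood at 17.2 and 20.4 CPM in OMP, against 0.442 and 1.004 CPM in CMP (log2 fold change 4.60, SE 0.58, adjusted p = 0.00181). The ligand genes slit2 (log2 fold change -1.06, SE 0.25, adjusted p = 0.0354, or 0.199 without the block) and slit3 (log2 fold change -1.18, SE 0.18, adjusted p = 0.00349, or 0.0800 without the block) and their receptor gene robo1 (log2 fold change -1.11, SE 0.25, adjusted p = 0.0304, or 0.209 without the block) fell. The 16 calls among guidance genes were 19.3% of those tested, against 6.10% over all genes. Of these 16, 6 were also made without the block, and 2, 3, 8 and 9 were left without OMP replicate 1, OMP replicate 2, CMP replicate 1 and CMP replicate 2, in that order. Nrp1a stayed called whichever library was left out.

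Cytoskeletal genes fell more often than they rose, with 9 higher and 17 lower of 229 tested. Of 57 contractile and actin-binding genes 6 were higher and 9 lower. Pdlim5a, a scaffold at actin Z-discs, stood at 22.7 and 26.9 CPM in OMP, against 181 and 203 CPM in CMP (log2 fold change -2.96, SE 0.26, adjusted p = 2.03e-04). Acta2, the smooth muscle actin gene, stood at 12.9 and 8.93 CPM in OMP, against 58.3 and 90.2 CPM in CMP (log2 fold change -2.80, SE 0.37, adjusted p = 0.00120). Tagln, also of smooth muscle, stood at 96.9 and 92.6 CPM in OMP, against 177 and 268 CPM in CMP (log2 fold change -1.23, SE 0.25, adjusted p = 0.0171, or 0.113 without the block). In all 3 the OMP libraries were under the CMP libraries. Myh11a, myl9a, flna, flnb and palld fell as well, while the tropomyosin gene tpm1, at 161 and 142 CPM in OMP, against 81.1 and 65.6 CPM in CMP (log2 fold change 1.05, SE 0.16, adjusted p = 0.00356, or 0.0952 without the block), and cald1b rose. Acta2, tagln and myh11a are 3 of the 7 mural cell markers. Of the others, pdgfrb, notch3, rgs5a and cspg4 had no call, and the part of mural cells in these falls was not tested. Of 20 intermediate filament genes 4 were lower and none higher, and none was higher in DESeq2 or at an unadjusted p under 0.05. Krt92 was one of the falls. Krt4 stood at 2995 and 3477 CPM in OMP, against 5505 and 6344 CPM in CMP (log2 fold change -0.87, SE 0.14, adjusted p = 0.00581, or 0.168 without the block), krt15 at 297 and 242 CPM in OMP, against 709.6 and 499 CPM in CMP (log2 fold change -1.14, SE 0.25, adjusted p = 0.0239, or 0.293 without the block) and vim, the vimentin gene of mesenchymal cells, at 90.8 and 90.4 CPM in OMP, against 172 and 184 CPM in CMP (log2 fold change -0.97, SE 0.18, adjusted p = 0.0114, or 0.141 without the block). Krt4 and krt15 are epidermal markers, whose summed level was lower in OMP as given above, and the part of epidermal cells in their fall was not tested. Other epidermal genes had no call, apart from ppl, which was higher in OMP within each replicate while the groups overlapped (log2 fold change 1.103, SE 0.24, adjusted p = 0.0257, or 0.545 without the block). Kank1b, a regulator of actin at adhesions, stood at 19.97 and 32.04 CPM in OMP, against 2.65 and 1.67 CPM in CMP (log2 fold change 3.62, SE 0.33, adjusted p = 2.37e-04). The 26 calls among cytoskeletal genes were 11.4% of those tested, against 6.10% over all genes. Of these 26, 6 were also made without the block, and 4, 3, 14 and 6 were left without OMP replicate 1, OMP replicate 2, CMP replicate 1 and CMP replicate 2, in that order. Pdlim5a and kank1b stayed called whichever library was left out.

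Channels and transporters were called at 27 of 360 tested, near the share over all genes, with 13 higher and 14 lower. Asic1a, the second acid-sensing channel gene, rose with asic1b, at 14.8 and 8.13 CPM in OMP, against 2.43 and 1.84 CPM in CMP (log2 fold change 2.36, SE 0.45, adjusted p = 0.0126, or 0.0669 without the block). Of 12 genes taken by potassium channel symbols 3 were higher and none lower, in DESeq2 as well, and 1 was lower at an unadjusted p under 0.05. The rises include kcnip3a, of a channel-interacting protein. Kcna4 stood at 33.9 and 24.4 CPM in OMP, against 11.7 and 4.35 CPM in CMP (log2 fold change 1.97, SE 0.36, adjusted p = 0.0110, or 0.163 without the block). Aqp3b, of the aquaporins that carry water and glycerol, stood at 30.9 and 29.8 CPM in OMP, against 2.87 and 3.01 CPM in CMP (log2 fold change 3.35, SE 0.28, adjusted p = 1.75e-04), and aqp3a at 1755 and 2346 CPM in OMP, against 1230.4 and 1284 CPM in CMP (log2 fold change 0.69, SE 0.16, adjusted p = 0.0286, or 0.294 without the block). In these 4 genes the groups did not overlap. Of 201 solute carrier genes 3 were higher and 6 lower, among them slc16a10, a carrier of aromatic amino acids, at 343 and 271 CPM in OMP, against 109 and 103 CPM in CMP (log2 fold change 1.52, SE 0.17, adjusted p = 7.90e-04). Slc6a4a, the serotonin transporter gene, fell, at 19.97 and 14.8 CPM in OMP, against 73.8 and 83.3 CPM in CMP (log2 fold change -2.20, SE 0.27, adjusted p = 0.00181). Abcc6a, whose mammalian counterpart is known for preventing ectopic mineral, stood at 145 and 95.6 CPM in OMP, against 41.1 and 12.4 CPM in CMP (log2 fold change 2.32, SE 0.27, adjusted p = 8.47e-04, or 0.0740 without the block). Atp6ap1la, of a proton pump accessory protein, had 11 and 21 reads in OMP, against 0 and 0 reads in CMP (at least 11.3-fold higher in OMP, adjusted p = 0.0353, or 0.0879 without the block). The 27 calls among channel and transporter genes were 7.5% of those tested, against 6.10% over all genes. Of these 27, 6 were also made without the block, and 1, 4, 13 and 5 were left without OMP replicate 1, OMP replicate 2, CMP replicate 1 and CMP replicate 2, in that order. Aqp3b stayed called whichever library was left out.

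Metabolic genes rose more often than they fell, with 25 rises and 8 falls among 312 tested. Of 49 genes of amino acids and one-carbon units 8 were higher and 1 lower. Glula, the glutamine synthetase gene, stood at 921 and 1344 CPM in OMP, against 231 and 340.1 CPM in CMP (log2 fold change 1.99, SE 0.17, adjusted p = 2.04e-04). The rises included 4 genes of phenylalanine and tyrosine use, namely pah, the first enzyme of the route, at 1111 and 1031 CPM in OMP, against 426 and 407 CPM in CMP (log2 fold change 1.36, SE 0.16, adjusted p = 8.10e-04), pcbd1, which recycles its pterin cofactor (log2 fold change 1.61, SE 0.17, adjusted p = 4.51e-04), fah, the last enzyme (log2 fold change 1.16, SE 0.18, adjusted p = 0.00428, or 0.0912 without the block), and tat. The libraries of glula and pah did not overlap between groups. Glsl and gpt2l, of glutamate metabolism, were the remaining rises beside glulb, and gldc, of glycine breakdown, was the fall. Of 24 genes taken by symbols of phosphatases, pyrophosphate enzymes and carbonic anhydrases 6 were higher and 2 lower. Enpp1, which makes pyrophosphate, an inhibitor of mineral growth, stood at 734 and 799.6 CPM in OMP, against 208 and 282 CPM in CMP (log2 fold change 1.66, SE 0.16, adjusted p = 3.22e-04). Entpd1 (log2 fold change 1.26, SE 0.20, adjusted p = 0.00419, or 0.0669 without the block) and entpd5a (log2 fold change 1.06, SE 0.17, adjusted p = 0.00554, or 0.149 without the block), which split nucleotides, and ca12, a carbonic anhydrase gene, at 19.4 and 18.01 CPM in OMP, against 3.53 and 2.84 CPM in CMP (log2 fold change 2.56, SE 0.32, adjusted p = 0.00132), rose too. The falls were alpi.1, annotated as an intestinal alkaline phosphatase, and its tandem duplicate alpi.2. Alpi.2 had 0 and 2 reads in OMP, against 22 and 21 reads in CMP (20.3-fold lower in OMP, counting interval 5.29 to 173, adjusted p = 0.0401, or 0.0947 without the block).

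Among lipid genes, angptl1a rose, at 399 and 349.7 CPM in OMP, against 73.99 and 96.4 CPM in CMP (log2 fold change 2.15, SE 0.20, adjusted p = 2.69e-04), and angptl2a fell, at 108 and 90.7 CPM in OMP, against 552 and 321 CPM in CMP (log2 fold change -2.08, SE 0.19, adjusted p = 2.69e-04). Both encode angiopoietin-like secreted proteins. Of 27 cytochrome P450 genes 2 were higher and 2 lower. Cyp1c1, whose family is induced through the aryl hydrocarbon receptor in fish, stood at 13.4 and 9.08 CPM in OMP, against 125 and 111 CPM in CMP (log2 fold change -3.42, SE 0.32, adjusted p = 1.58e-04), and the receptor gene ahr2 fell, at 98.8 and 79.4 CPM in OMP, against 195 and 163 CPM in CMP (log2 fold change -1.01, SE 0.19, adjusted p = 0.0119, or 0.138 without the block). Cyp2r1, a vitamin D hydroxylase gene, stood at 48.98 and 135 CPM in OMP, against 15.5 and 58.7 CPM in CMP (log2 fold change 1.37, SE 0.26, adjusted p = 0.0120, or 0.507 without the block), with overlapping groups and higher OMP within each replicate. Sod3b, a secreted superoxide dismutase gene, stood at 28.7 and 33.9 CPM in OMP, against 5.74 and 6.36 CPM in CMP (log2 fold change 2.37, SE 0.25, adjusted p = 4.89e-04). The 33 calls among metabolic genes were 10.6% of those tested, against 6.10% over all genes. Of these 33, 14 were also made without the block, and 7, 11, 21 and 17 were left without OMP replicate 1, OMP replicate 2, CMP replicate 1 and CMP replicate 2, in that order. The 7 that stayed whichever library was left out were glula, alpi.1, ca12, angptl1a, angptl2a, cyp1c1 and sod3b.

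Genes of growth, energy and protein handling had few calls, 4 higher and 2 lower of 391 tested, or 1.53%. None of 56 cell cycle and replication genes was called by edgeR's quasi-likelihood test, 1 was higher and 2 lower at an unadjusted p under 0.05, and DESeq2 called 1 lower. None of 86 oxidative phosphorylation genes and none of 29 genes of apoptosis and p53 was called by edgeR's quasi-likelihood test or DESeq2. At an unadjusted p under 0.05 there were 3 oxidative phosphorylation genes and 2 of apoptosis and p53. Of 76 cytosolic ribosomal protein genes 1 was lower, rps12, at 45.97 and 70.29 CPM in OMP, against 115 and 130.2 CPM in CMP (log2 fold change -1.09, SE 0.20, adjusted p = 0.0109, or 0.183 without the block), and their median log2 fold change was -0.20. At an unadjusted p under 0.05, 8 of them were lower and 0 higher. Of 68 genes of the secretory pathway 2 were higher, both of membrane-bound transcription factors, creb3l1 (log2 fold change 1.09, SE 0.24, adjusted p = 0.0283, or 0.168 without the block) and creb3l3b (log2 fold change 2.14, SE 0.51, adjusted p = 0.0430, or 0.118 without the block). In this family 11 genes were higher and 1 lower at an unadjusted p under 0.05, with a median log2 fold change of 0.175. Of 76 heat shock and chaperone genes hspb1 and hspb11 rose and dnajb4 fell. None of these 6 calls was made without the block. Without OMP replicate 1 or OMP replicate 2 none was left, and without CMP replicate 1 or CMP replicate 2 there were 2 and 3.

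Zebrafish hold many gene pairs left by a genome duplication, and 1292 pairs whose symbols differ only in a last letter a or b were tested in both members. The pairs were taken by symbol, and their sequences were not compared. Of 2584 genes in such pairs 207 were called, or 8.01%, near the 6.10% over all genes tested. In 28 pairs both members were called in the same direction, in 8 in opposite directions and in 135 one member only. Called in opposite directions was clec3ba at 2.74 and 3.67 CPM in OMP, against 16.1 and 12.2 CPM in CMP (log2 fold change -2.06, SE 0.49, adjusted p = 0.0435, or 0.113 without the block) with clec3bb at 14.5 and 10.7 CPM in OMP, against 0.442 and 0.335 CPM in CMP (log2 fold change 4.92, SE 0.64, adjusted p = 0.00111), both of tetranectin-like lectins. Periostin genes parted too, since postna stood at 299 and 418 CPM in OMP, against 477 and 723 CPM in CMP (log2 fold change -0.73, SE 0.16, adjusted p = 0.0272, or 0.399 without the block) while postnb rose (2.50, as given above). Gpm6aa (-3.19) and gpm6ab (1.83 with the block only), membrane glycoprotein genes, mxra5a (-1.44 with the block only) and mxra5b (3.401 with the block only), of matrix remodelling, and nid1a (-1.12 with the block only) and nid1b (1.14 with the block only), the basement membrane nidogens, did likewise. The remaining 3 were the pentraxin genes ptx3a (-1.31 with the block only) and ptx3b (2.06 with the block only), znf385a (1.74 with the block only) and znf385b (-1.92 with the block only), and ccdc3a (-1.39 with the block only) and ccdc3b (1.096 with the block only). In none of the 8 pairs were both members called without the block. Without 1 OMP or CMP library the number of pairs called in opposite directions was between 0 and 2.

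Among pairs that moved together, fzd9a and fzd9b, gdf10a and gdf10b, dlx4a and dlx4b, igf2a and igf2b, prg4a and prg4b, mamdc2a and mamdc2b, and col10a1a and col10a1b were called in both members without the block as well. Prg4b, the second lubricin gene, stood at 177 and 97.1 CPM in OMP, against 29.6 and 7.695 CPM in CMP (log2 fold change 2.95, SE 0.50, adjusted p = 0.00688). Dlx4a stood at 3.83 and 3.98 CPM in OMP, against 31.8 and 23.3 CPM in CMP (log2 fold change -2.79, SE 0.41, adjusted p = 0.00301), and dlx4b at 4.65 and 6.53 CPM in OMP, against 49.7 and 65.1 CPM in CMP (log2 fold change -3.37, SE 0.32, adjusted p = 3.02e-04). Fgf13a had 2 and 0 reads in OMP, against 33 and 16 reads in CMP (23.2-fold lower in OMP, counting interval 6.08 to 197, adjusted p = 0.0321, or 0.144 without the block), and fgf13b stood at 0 and 0.956 CPM in OMP, against 18.3 and 11.7 CPM in CMP (log2 fold change -4.51, SE 0.76, adjusted p = 0.00823). Both members of the asic1, zfpm2 and ca10 pairs rose, with zfpm2a at 15.3 and 7.01 CPM in OMP, against 0.663 and 2.01 CPM in CMP (log2 fold change 2.83, SE 0.68, adjusted p = 0.0384, or 0.133 without the block).

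**Figure D5:**
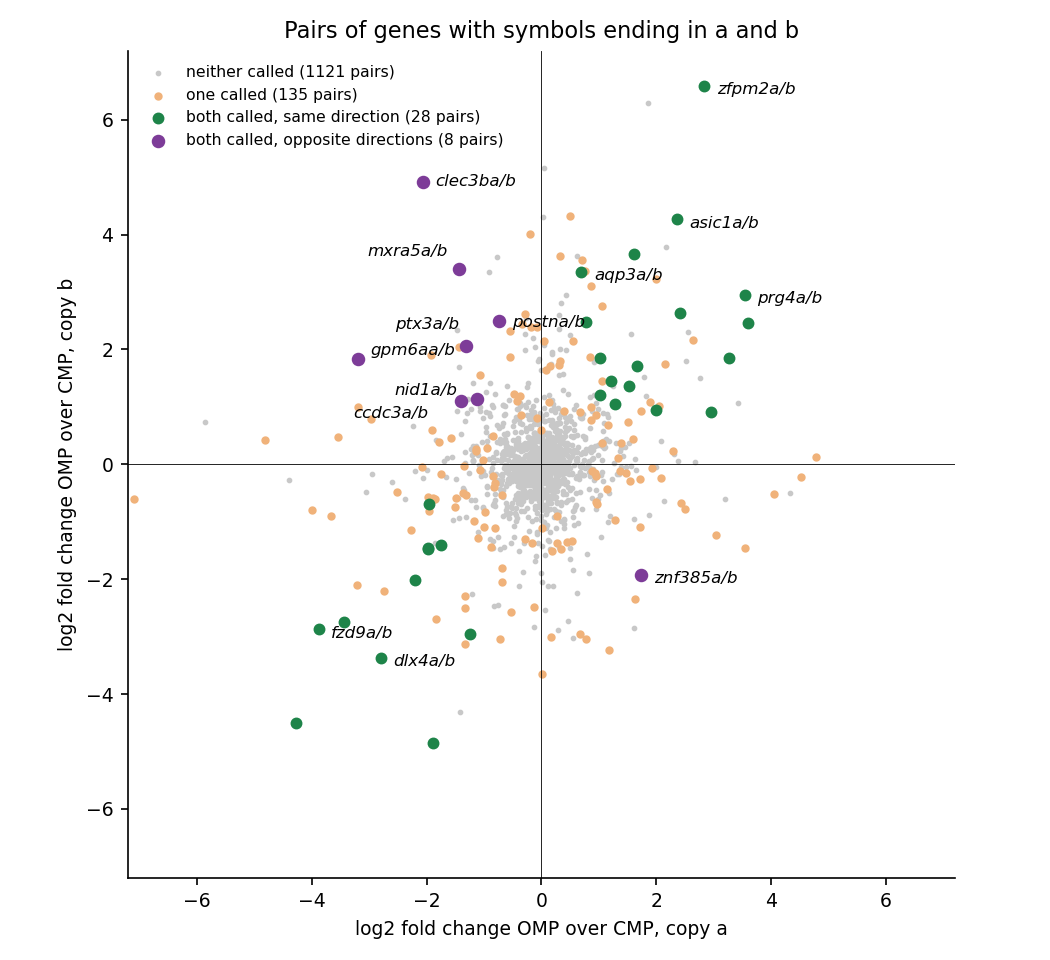
Each point is a pair of genes whose symbols end in a and b, placed by the fitted log2 fold change of OMP over CMP of copy a (x axis) and of copy b (y axis). Purple points are the 8 pairs called in opposite directions, green points the 28 called in the same direction, orange points the 135 with one call and grey points the 1121 with none. Values beyond 5 in size belong to genes with few or no reads in one group and depend on the model.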

How the data were processed

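RNA from sorted fin cells was sequenced in 2 OMP, 2 CMP and 2 osteoblast libraries. Per the submitters' processing notes, HISAT2 2.2.1, featureCounts 2.0.3 and the genome build GRCz11 were used, while strand is not mentioned there. The authors deposited 1 table of 75811 rows, mostly transcripts, with counts for each library and with RPKM, TPM and transcript length. The counts were used for all tests. Of the rows with the same gene symbol, the one with the most reads over the 6 libraries was kept, so that fold changes of genes with several transcripts, 14989 of 30837 symbols, rest on 1 of them.

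Genes were filtered with filterByExpr, scaled by TMM and fitted over all 6 libraries with group and replicate number in edgeR 4.0.16 (R 4.3.3, limma 3.58.1) by the quasi-likelihood method, with Benjamini-Hochberg adjustment over 13399 genes. The bias-adjusted deviances of this edgeR version were taken after both kinds had been seen. SEs were obtained by dividing the log2 fold change by the root of F. The fit has 2 residual degrees of freedom, or 3 without the block. The method was run on simulated data with known changes. These data were drawn without an effect of the replicate number, so the run has no bearing on the choice of the block. Alternatives were no block, DESeq2 1.42.0, its size factors, no filter, the 4 OMP and CMP libraries alone and leaving out each library.

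Genes were named by rule: the sorted genes and reporters, the 12 largest changes per direction with a mean log2 CPM from 4 up that were also called without the block, the 8 most abundant called genes per direction, called genes with at most 3 reads over one group and 100.0 over the other, up to 4 members per family by p (all where 5 or fewer were called), called markers, and duplicate pairs. Not all genes so named are reported here. Family members listed beyond these, with a fold change alone, a read count or no value, were picked after their values were seen. The groups of genes and the rule were chosen with earlier results of these data known. Counting intervals are exact 95% ones, and intervals and bounds cover counting error only.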

Additional observations from a re-analysis of the deposited data

How the results depend on the processing

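The 418 rises and 400 falls became 132 and 129 without the replicate block, 400 and 388 with RLE size factors, 366 and 314 in DESeq2, 331 and 328 without the filter on low counts and 400 and 409 with the 4 OMP and CMP libraries alone. With the deviances of earlier edgeR versions, an alternative chosen after seeing the data, they were 335 and 288. Leaving out 1 library gave 64 to 361 rises and 47 to 358 falls, with the smallest counts without OMP replicate 1 and the largest without osteoblast replicate 1. No gene of the 818 was called in the other direction under any of these settings. The 382 calls in gene families became 149 without the block and 64 to 344 with 1 library left out. The 8 duplicate pairs called in opposite directions became 0 without the block, 5 in DESeq2, 7 without the filter, 12 with the 4 libraries alone and 0 to 10 with 1 library left out. Of 290 genes named by the rule, 148 kept their call without the block, 249 of 287 in DESeq2 and 265 without the filter. Without OMP replicate 1 there were 74, without OMP replicate 2 98 of 288, without CMP replicate 1 207 and without CMP replicate 2 169. None of the named genes changed direction under any of these settings. The cause of the lower counts was not tested. Where 1 library was left out, the smaller number of libraries and the values of that library cannot be told apart. Deviations of same-numbered libraries from their group means correlated over genes, at 0.337 between OMP and CMP, 0.296 between CMP and osteoblast and 0.383 between OMP and osteoblast libraries. With 2 replicates a group, and no label on what a number marks, these values are a hint from the data that the numbers pair libraries, not a fact of the design. With 2 libraries a group and 3922181 to 5281887 reads in each, small changes of genes with few reads were not detectable.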
